A study of Mus musculus with 10 samples.

Results

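Genes of mitosis and the spindle were compared between mouse naive B cells and plasma cells, which secrete antibody and arise from B cells. The set holds 45 genes, of 26434 gene symbols in the RNA files, and was chosen by name from known roles: cyclins, kinases and phosphatases of mitotic entry, the spindle checkpoint and anaphase machinery, the chromosomal passenger complex, kinetochore proteins, motors and spindle proteins, cytokinesis genes and 2 chromosome proteins. The study has 10 samples across RNA-seq, ATAC-seq, chromosome contacts and ChIP-seq, and the values below come from its 2 RNA libraries, both C57BL/6 and of wild-type genotype. Naive B cells were CD23+ IgD+ cells sorted from spleen. The plasma library is labelled as activated in vitro and sorted, with a growth protocol for CD23-selected spleen cells, while its extraction protocol describes CD138+ B220- cells sorted from bone marrow. The labels do not settle which, and these sources may differ in how many cells divide. Sex-linked RNA differed between the libraries, with Xist at 0.383 TPM (a unit of transcript abundance, explained below) in the naive and 128 TPM in the plasma library, and the Y-linked Eif2s3y at 104 and 0 TPM. The sex of the animals is therefore confounded with the cell type, and these cannot be told apart in any ratio below. With 1 library per cell type no difference has a replicate check, and no test was run. The libraries held 36995177 estimated counts (naive) and 43457786 (plasma).

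A cell enters mitosis when cyclin B activates the kinase Cdk1, after Cdc25 phosphatases remove its inhibitory phosphates. The spindle checkpoint holds the anaphase-promoting complex (APC/C, a ubiquitin ligase) inactive until every kinetochore is attached to microtubules. Cdc20 then turns the APC/C on, securin and the cyclins are destroyed, separase cuts cohesin, and the central spindle guides the division of the cell. Most genes of this machinery are transcribed late in the cell cycle and are silent in resting cells, held down by a repressor complex named DREAM. Naive B cells rest until antigen or a mitogen such as lipopolysaccharide drives them to divide, and long-lived plasma cells of the bone marrow do not divide.

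The mitosis genes were higher in the plasma library in nearly every case. Levels are given in TPM (transcript abundance scaled for transcript length and library size, so levels of different genes can be compared), and ratios on the log2 scale, plasma over naive, after 1 TPM was added to each level. The median ratio of the 7488 genes that reached 5 TPM in each library, -0.99, was subtracted (centring). A gene was called at least 2-fold higher or lower with at least 5 TPM in 1 library. Of the 45 members, 44 passed that minimum, 42 were called higher and 0 lower, against 16.0% higher and 22.0% lower among all 10191 genes that passed it. At least 4-fold higher were 32 members (7.68% of all genes), and at least 8-fold higher were 18 (3.92% of all genes). The members' median ratio was 2.72, and that of the 12915 genes reaching 1 TPM was -0.13. The 3 members without a call were Bub3, Pttg1 and Anln, the last with 2.77 TPM at most. Without centring the TPM of 43 members was still above its naive value, with Bub3 and Pttg1 below it, and 32 members were called higher and 1 lower.

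Among all genes the split between higher and lower calls depended on the scaling: 42.1% of calls were higher as reported, 11.9% without centring, 56.8% with TMM factors on the estimated counts and 56.3% with the size factors of DESeq2. Together the 45 genes took 588 TPM of the naive library and 1662 TPM of the plasma library. A level is an average over the cells of a library, so more dividing cells and more RNA per cell cannot be told apart.

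**Figure D1:**
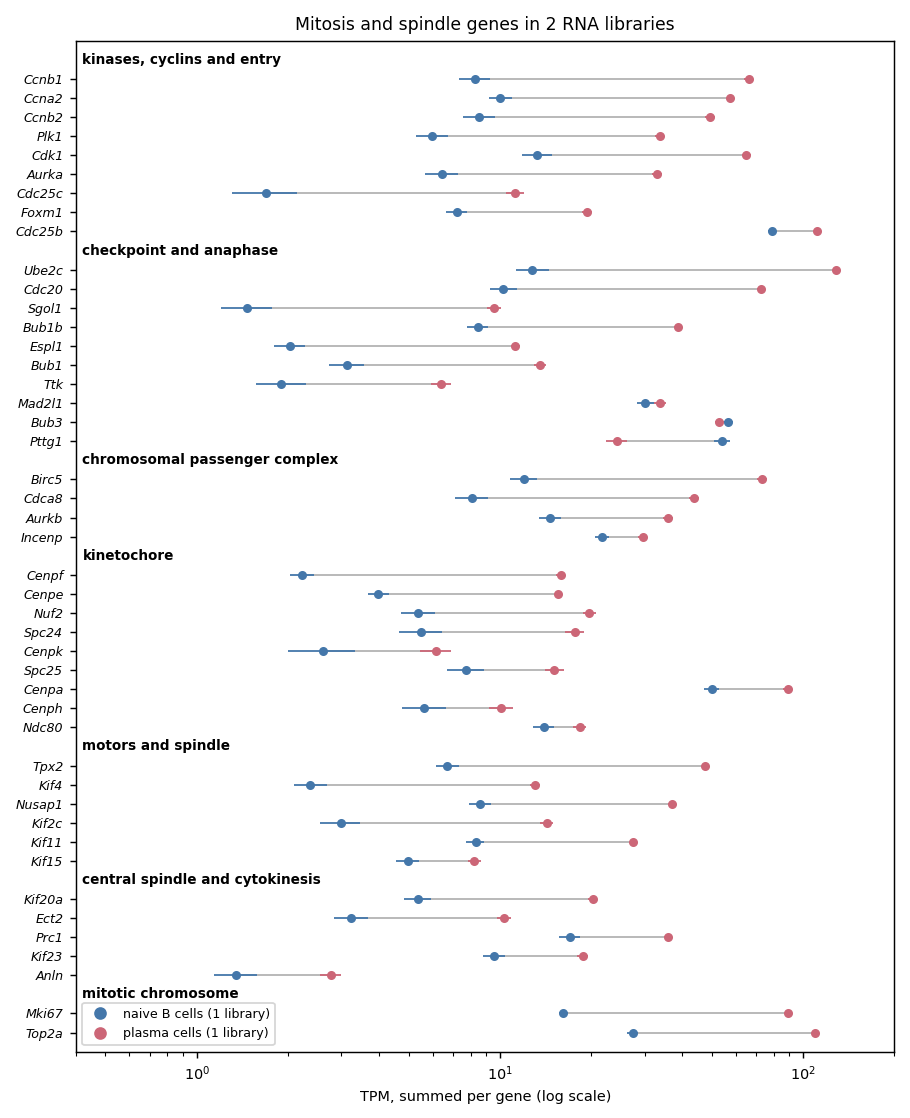
TPM per gene on a log axis for the 45 members, grouped by role and ordered by ratio within a role; blue points are the naive B cell library, red points the plasma cell library, and bars are exact 95% Poisson intervals for counting error. Red lies to the right of blue for all members but Bub3 (56.6 and 52.9 TPM) and Pttg1 (54.0 and 24.3 TPM).

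Promoters of the members shared short sequence elements that the choice of the genes did not use. Genes of late cell cycle are known to carry a CHR (cell cycle genes homology region), bound by the MuvB core of DREAM, and CCAAT boxes, bound by the factor NF-Y. The CHR was searched as TTTGAA or TTTAAA and the CCAAT box as CCAAT, both on either strand, from 250 bases before to 50 bases after the annotated start in RefSeq's promoters (GRCm38.p6). The table held promoters of 37 of the 45 members. The sequences below are those of the 5 members with the highest ratio and the 3 with the lowest among these 37, from 250 bases before to 30 bases after the start, written 5′ to 3′ along the gene's strand, with every CHR and CCAAT match in capitals. They show how the elements are arranged where the ratio was high and where it was not.
Ube2c: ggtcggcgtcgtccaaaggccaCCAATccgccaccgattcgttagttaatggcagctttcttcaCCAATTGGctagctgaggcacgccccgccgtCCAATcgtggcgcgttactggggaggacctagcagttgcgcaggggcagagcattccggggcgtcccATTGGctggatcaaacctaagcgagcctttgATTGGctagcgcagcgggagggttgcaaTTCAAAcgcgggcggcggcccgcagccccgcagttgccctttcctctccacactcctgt
Ccnb1: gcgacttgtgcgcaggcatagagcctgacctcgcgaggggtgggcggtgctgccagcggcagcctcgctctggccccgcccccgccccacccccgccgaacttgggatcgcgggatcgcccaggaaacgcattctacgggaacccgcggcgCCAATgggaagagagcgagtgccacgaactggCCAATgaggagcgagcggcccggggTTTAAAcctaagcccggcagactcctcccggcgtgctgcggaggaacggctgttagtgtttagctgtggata
Cdc20: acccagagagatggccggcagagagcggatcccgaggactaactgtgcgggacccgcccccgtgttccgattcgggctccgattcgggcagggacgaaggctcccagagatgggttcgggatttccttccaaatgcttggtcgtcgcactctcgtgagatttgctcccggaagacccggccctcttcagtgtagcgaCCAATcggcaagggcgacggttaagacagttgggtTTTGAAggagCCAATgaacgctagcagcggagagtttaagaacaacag
Birc5: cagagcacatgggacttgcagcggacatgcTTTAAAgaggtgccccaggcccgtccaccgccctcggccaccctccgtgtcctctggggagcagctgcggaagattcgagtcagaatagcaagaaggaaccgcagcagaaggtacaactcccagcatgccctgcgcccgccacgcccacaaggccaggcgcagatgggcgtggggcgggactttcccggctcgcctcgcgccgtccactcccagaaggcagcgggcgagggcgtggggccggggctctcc
Ccnb2: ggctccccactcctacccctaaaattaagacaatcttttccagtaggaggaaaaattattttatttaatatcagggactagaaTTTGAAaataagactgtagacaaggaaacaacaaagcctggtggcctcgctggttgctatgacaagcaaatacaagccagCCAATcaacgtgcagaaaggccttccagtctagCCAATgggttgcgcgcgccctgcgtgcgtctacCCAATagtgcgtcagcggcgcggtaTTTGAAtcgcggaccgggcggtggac
Mad2l1: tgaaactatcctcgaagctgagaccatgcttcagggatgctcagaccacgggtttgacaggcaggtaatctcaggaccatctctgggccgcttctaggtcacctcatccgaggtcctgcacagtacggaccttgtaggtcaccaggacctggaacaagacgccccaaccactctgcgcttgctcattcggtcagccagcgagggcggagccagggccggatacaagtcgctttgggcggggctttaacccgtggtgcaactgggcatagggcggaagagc
Bub3: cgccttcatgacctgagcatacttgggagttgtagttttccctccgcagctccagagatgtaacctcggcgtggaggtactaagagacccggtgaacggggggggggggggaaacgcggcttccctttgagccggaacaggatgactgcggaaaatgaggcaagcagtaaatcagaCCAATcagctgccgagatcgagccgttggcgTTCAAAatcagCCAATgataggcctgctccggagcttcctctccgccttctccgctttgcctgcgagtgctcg
Pttg1: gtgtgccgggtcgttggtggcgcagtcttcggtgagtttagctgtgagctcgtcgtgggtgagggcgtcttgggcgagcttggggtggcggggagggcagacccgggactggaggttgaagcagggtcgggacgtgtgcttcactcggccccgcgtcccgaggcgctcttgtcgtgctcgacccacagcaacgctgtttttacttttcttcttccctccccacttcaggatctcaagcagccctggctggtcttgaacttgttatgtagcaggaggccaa
These windows lie at chr2:164769679-164769958, plus strand, for Ube2c; chr13:100786457-100786736, minus strand, for Ccnb1; chr4:118437314-118437593, minus strand, for Cdc20; and chr11:117848987-117849266, plus strand, for Birc5. Ccnb2 has chr9:70421525-70421804, minus strand. Mad2l1 has chr6:66534971-66535250, plus strand. Bub3 has chr7:131560120-131560399, plus strand. Pttg1 has chr11:43425952-43426231, minus strand.

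In Ccnb1 the CHR starts 42 bases before the annotated start, with CCAAT boxes at 99 and 67 bases before it. Ccnb2 has 3 CCAAT boxes, each 33 bases from the next, with CHR matches 167 bases before and 4 bases past the start. In Ube2c the CHR lies on the opposite strand, 29 bases before the start, after 6 CCAAT matches, of which 2 on opposite strands overlap. Cdc20 has its CHR 18 bases before the start, between CCAAT boxes at 53 and 8. The arrangement is not tied to the ratio in each gene: Birc5 has a CHR match 220 bases upstream and no CCAAT, and Bub3, which was not called, has in its first listed promoter a CHR match on the opposite strand at 43 bases and CCAAT boxes at 74 and 32. Mad2l1 and Pttg1 hold neither, which says only that these letters are not in this window.

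Of the 37 members, 28 held a CHR match (75.7%, exact binomial interval 58.8 to 88.2%), against 30.6% of the 27025 genes in the table. Genes with at least 5 TPM held it in 22.4% of cases, and genes called higher that are not members in 24.8%. Within 50 bases of the start, a range chosen after the positions were seen, 25 members had a CHR match (67.6%), against 9.54% of all genes. A CCAAT box was present in 28 members (75.7%), against 41.1% of all genes, and both elements in 23 (62.2%), against 12.2%. Genes called higher that are not members held a CCAAT box in 48.3% and both elements in 12.01% of cases. At least 2 CCAAT boxes were found in 18 members (48.6%), against 13.3% of all genes, 17.8% of genes with at least 5 TPM and 23.3% of the other genes called higher. A spacing of 30 to 35 bases between 2 of them, also chosen after the positions were seen, was found in 7 members (18.9%), against 1.85%, 3.44% and 5.43%. The 23 members with both elements had a median ratio of 3.05 (0.89 to 4.22), and the other 14 a median of 1.85 (-0.14 to 3.51). Neither element was found in Mad2l1, Pttg1, Nuf2 and Nusap1. A match is a description and not a binding site, and the part of these elements in the ratios was not tested.

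**Figure D2:**
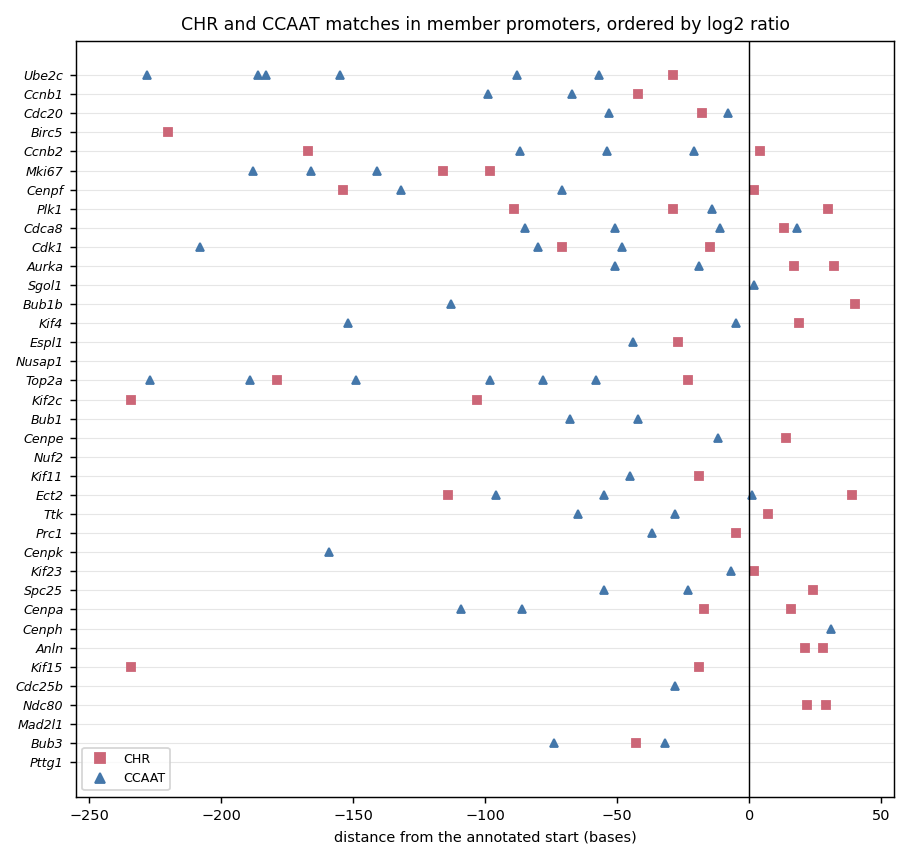
Positions of CHR (squares) and CCAAT (triangles) matches, in bases from the annotated start, in the first listed promoter of each of the 37 members, ordered from the highest ratio (Ube2c) to the lowest (Pttg1). CHR matches gather within 50 bases of the start, with CCAAT boxes mostly upstream of them.

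The genes of mitotic entry were all called higher, 9 of 9, against 16.0% of all genes, with a median ratio of 3.19. Of these, 8 were still called without centring, against 7.75% of all genes, and Cdc25b was not (0.49). Ccnb1, cyclin B1, was at 8.27 TPM in the naive and 66.1 TPM in the plasma library, a ratio of 3.84. Ccnb2, cyclin B2, went from 8.56 to 49.4 TPM (3.39), so that the 2 cyclins, at nearly the same naive level, differed by 1.34 times in the plasma library. Their kinase Cdk1 was at 13.3 and 65.0 TPM (3.19). Cyclin A2, Ccna2, which acts from S phase on, was at 10.0 and 57.6 TPM (3.40). Of its plasma TPM, 31.9 came from a transcript with a coding sequence of 462 bases, against 1269 bases in its other transcript. The ratio of estimated counts, centred the same way and without a pseudocount, had an interval of 3.81 to 4.17 for Ccnb1 and 3.29 to 3.63 for Cdk1, so counting error was small beside the differences.

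Cdc25b and Cdc25c, phosphatases of mitotic entry, did not share 1 pattern. Cdc25b was at 78.8 TPM in the naive library, the highest naive level of the 45 genes, and at 111 TPM in the plasma library, with a ratio of 1.48. Cdc25c was at 1.69 TPM (67 estimated counts) and 11.2 TPM (840), with a ratio of 3.17. The level of Cdc25b over Cdc25c was thus 46.7 in the naive and 9.91 in the plasma library. Cdc25a, counted below among other genes of the entry switch, was at 10.7 and 15.4 TPM. Its ratio of 1.48 was near that of Cdc25b. Plk1, the polo kinase that promotes entry and later steps of mitosis, was at 5.97 and 33.6 TPM (3.30). Aurka, Aurora A, which acts at centrosomes, was at 6.44 and 33.0 TPM (3.18). Foxm1, a transcription factor of genes of this phase, was at 7.20 and 19.4 TPM, a lower ratio of 2.30 (count interval 2.48 to 2.73).

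Checkpoint and anaphase genes held both the highest and the lowest ratios. Of the 10 genes 8 were called higher, against 16.0% of all genes. When ratios were not centred, 7 were called higher and 1 lower. Ube2c, the ubiquitin-conjugating enzyme of the APC/C, was at 12.8 TPM in the naive and 129 TPM in the plasma library, a ratio of 4.22 and the highest plasma level of the set. Cdc20, the APC/C activator, went from 10.3 to 72.5 TPM (3.69). Of the APC/C's 2 targets and effectors in sister separation, separase (Espl1) was at 2.03 and 11.2 TPM (3.00). Securin (Pttg1), the inhibitor that separase is freed from, was at 54.0 TPM in the naive and 24.3 TPM in the plasma library. Its centred ratio was -0.14, and -1.12 without centring. Securin stood 26.6 times above separase in the naive and 2.16 times in the plasma library. Sgol1, shugoshin, which guards cohesin at centromeres, was at 1.46 and 9.54 TPM (3.08).

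The checkpoint proteins were unequal as well. Bub1, a checkpoint kinase, was at 3.12 and 13.6 TPM (2.81), and Bub1b, which encodes BubR1, at 8.46 and 38.6 TPM (3.05). Ttk, the Mps1 kinase that starts the signal, was at 1.90 and 6.40 TPM (2.34). Bub3, the partner that carries Bub1 and BubR1 to kinetochores, was at 56.6 and 52.9 TPM, a centred ratio of 0.89 that was not called, with a count interval of 0.89 to 1.03. It was called with TMM factors (1.28) and with DESeq2 size factors (1.32). Bub3 stood 6.69 times above Bub1b in the naive and 1.37 times in the plasma library. Mad2l1, the Mad2 protein that binds Cdc20, was at 30.1 and 33.8 TPM (1.15, and 0.16 without centring, where it was not called). The level of Cdc20 over that of Mad2l1 was 0.341 in the naive and 2.14 in the plasma library. Bub3, Mad2l1 and Pttg1 were thus 3 of the 10 genes of this group that naive B cells held at 30 TPM or more.

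All 4 genes of the chromosomal passenger complex were called higher, against 16.0% of all genes, and Incenp went from the highest to the lowest of them. The call of Incenp depended on centring: without it 3 of the 4 were called, and Incenp was not (0.43). Incenp, the scaffold, was at 21.7 TPM in the naive and 29.6 TPM in the plasma library (1.42). Aurkb, the kinase Aurora B, was at 14.7 and 35.8 TPM (2.22). Survivin, Birc5, was at 11.96 and 73.4 TPM (3.51), and borealin, Cdca8, at 8.07 and 43.7 TPM (3.29). The level of Incenp over that of Birc5 was 1.82 in the naive and 0.403 in the plasma library, while Birc5 lay above Cdca8 in both. The ratio of Birc5 rests in part on transcript length, described with the transcripts: its count ratio was lower, at 3.05 (2.89 to 3.21).

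Of the 9 kinetochore genes 9 were called higher, against 16.0% of all genes, with a median ratio of 1.97. Only 1, Cenpf, was at least 8-fold higher. The calls of this group depended on centring: without it 4 of 9 were called (Cenpe, Cenpf, Nuf2 and Spc24), with a median of 0.99. In the Ndc80 complex, the rod of 4 proteins that grips microtubules, subunit levels lay closer together in the plasma library. Ndc80 itself was at 13.9 TPM in naive B cells (Poisson interval 12.9 to 15.1) and at 18.4 TPM in plasma cells (17.5 to 19.3). Its partner Nuf2 was at 5.39 TPM (4.74 to 6.10) and 19.7 TPM (18.8 to 20.7). Spc24 was at 5.49 and 17.6 TPM, and Spc25 at 7.73 and 15.1 TPM. Of the plasma TPM of Spc24, 5.02 came from a 614-base transcript with 112 estimated counts. The 1349-base transcript of Spc24 alone was at 12.6 TPM in the plasma library, with a centred ratio of 1.97. The comparison below uses the levels of whole genes. The highest of the 4 was 2.59 times the lowest in the naive and 1.31 times in the plasma library. In the naive library Ndc80 lay above the other 3, and Spc25 (6.69 to 8.88) above Nuf2 and Spc24 by their Poisson intervals. Ratios ran from 1.36 for Ndc80 to 2.69 for Nuf2.

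At the inner kinetochore, Cenpa, the histone H3 variant that marks centromeres, was at 49.9 and 88.8 TPM (1.81). Its transcript with the longest coding sequence, 405 bases, was at 16.3 and 24.4 TPM. A transcript with a coding sequence of 120 bases was at 19.6 and 49.4 TPM. Cenph, of the constitutive centromere network, was at 5.63 and 10.1 TPM (1.73). Cenpk, which belongs to the same network, was at 2.61 TPM (64 estimated counts) and 6.14 TPM (287), a ratio of 1.97 with a count interval of 1.91 to 2.72. The large outer proteins had higher ratios. Cenpe, a kinesin that moves chromosomes toward the spindle's middle, was at 3.98 and 15.6 TPM (2.72). Cenpf was at 2.23 and 15.9 TPM (3.37), of which 8.73 plasma TPM came from a 358-base transcript with 107 estimated counts, and its count ratio was 2.99 (2.85 to 3.14).

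**Figure D3:**
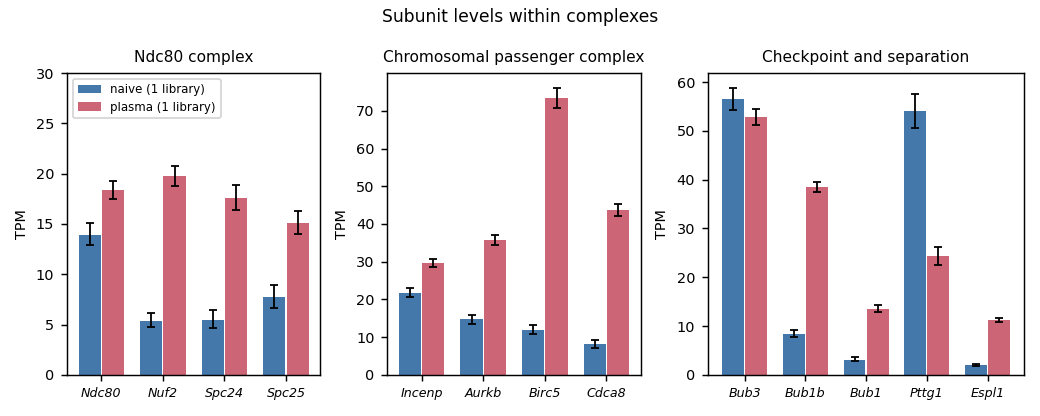
TPM of subunits in naive B cells (blue) and plasma cells (red), 1 library each, with exact 95% Poisson intervals for counting error: the Ndc80 complex, the chromosomal passenger complex, and genes of the checkpoint and of sister separation. Ndc80 is the highest of its complex in the naive library only, and Incenp goes from highest to lowest of its complex. The genes whose naive bar is the taller are Bub3 and Pttg1.

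Motors and spindle proteins were called higher in 6 of 6 cases, against 16.0% of all genes, with a median ratio of 2.95. Of these, 5 were still called without centring, and Kif15 was not (0.63). Tpx2, which activates Aurora A and seeds microtubules near chromosomes, was at 6.71 and 47.5 TPM (3.64), the highest of the group. Kif11, the kinesin that pushes the spindle poles apart, was at 8.31 and 27.5 TPM (2.60). Kif15, which can share that task, was at 4.97 and 8.24 TPM (1.62), the lowest of the group. Kif2c, a kinesin that takes microtubule ends apart, was at 2.99 and 14.3 TPM (2.93), and the microtubule-binding Nusap1 at 8.62 and 37.1 TPM (2.97). The chromosome-bound kinesin Kif4 was at 2.37 and 13.1 TPM (3.05). Kif4 is X-linked, and a part of sex in its ratio was not tested.

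Genes of the central spindle and cytokinesis had lower ratios, with a median of 2.02 and 4 of 5 called, against 16.0% of all genes. Kif20a, Prc1 and Ect2 were still called without centring, and Kif23 was not (0.90). Kif20a, which brings the passenger complex to the central spindle, was at 5.36 and 20.2 TPM (2.72). Kif23, the motor of centralspindlin, was at 9.58 and 18.8 TPM (1.89), and Prc1, which bundles the antiparallel microtubules, at 17.0 and 35.9 TPM (2.02). The ratio of Prc1, which is also the group's median, rests in part on short transcripts. Of its naive TPM, 4.19 came from a 724-base transcript with 59.4 estimated counts. Its count ratio was higher, at 2.68 (2.56 to 2.81), and its main transcript alone had a centred ratio of 2.95. Ect2, the exchange factor that switches on RhoA at the cleavage site, was at 3.24 and 10.3 TPM (2.40). Anln, the ring protein anillin, was at 1.35 TPM (152 estimated counts) and 2.77 TPM (589). Its ratio of 1.67 passed 2-fold but its level missed the minimum of 5 TPM. The chromosome proteins had the most plasma counts of the 45 genes. Mki67, the Ki-67 antigen that coats mitotic chromosomes, had 3410 and 35395 estimated counts (16.2 and 89.1 TPM, ratio 3.38). Top2a, which untangles sister DNA, had 2601 and 18927 (27.4 and 109 TPM, ratio 2.94).

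Several members also differed in the estimated share of counts that each transcript carried. Reads that fit several transcripts of a gene are divided among them by estimation. The intervals of the shares leave out the error of that division. The files list 1 transcript for 16 members and several for 29, with 113 in all, each with a coding sequence. Of these, 12 transcripts in 7 genes (Aurka, Birc5, Kif20a, Nuf2, Nusap1, Pttg1 and Spc25) had a share of their gene's counts that differed by at least 25 percentage points, a limit chosen after the values were seen. For Birc5 the transcript of 3334 bases, with a 3′ untranslated region of 2936 bases, held 53.9% of the naive counts (48.8 to 59.2%) and 11.4% of the plasma counts (10.2 to 12.6%). Its transcript of 947 bases went from 46.1% to 77.1%, and the mean transcript length from 2233 to 1201 bases. The 2 differ in their coding sequence, of 366 and 423 bases. In Pttg1 the transcript of 1674 bases held 48.4% and 11.4%, while that of 696 bases held 43.8% and 80.7%. The shorter, main Pttg1 transcript alone had a centred ratio of 0.29, above 0 where the whole gene lay below. For that centring every gene was reduced to 1 transcript. This Pttg1 transcript was at 31.6 TPM in the naive and 20.4 TPM in the plasma library, so the sign of its ratio rests on centring.

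In Nuf2 and Kif20a the estimated shares differed between transcripts with coding sequences of the same length, 1392 bases in Nuf2 and 2664 bases in Kif20a. The Nuf2 transcript of 2067 bases went from 41.3% (35.2 to 47.8%) to 97.6% (96.8 to 98.3%). In Kif20a the transcript of 3461 bases went from 48.0% to 88.5%, and that of 3565 bases from 52.0% to 6.93%. The main transcript also had a larger estimated share in Aurka (65.1% to 92.9%) and Nusap1 (64.5% to 92.2%). The Aurka transcripts of 1905 bases had the same estimated counts as each other, 43.2 naive and 84.7 plasma, so they were not told apart. In Spc25 a transcript of 1161 bases held 29.8% of the naive counts and 0.00125% of the plasma counts. Mad2l1, just below the limit, went from 59.1% to 81.0% in its transcript of 1370 bases. The naive shares rest on 198 to 979 estimated counts a gene. Mean transcript length was shorter in the plasma library in 18 of 28 members with counts in several transcripts, against 53.6% of 6423 such genes with at least 5 TPM, so the direction of length was near that of other genes.

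**Figure D4:**
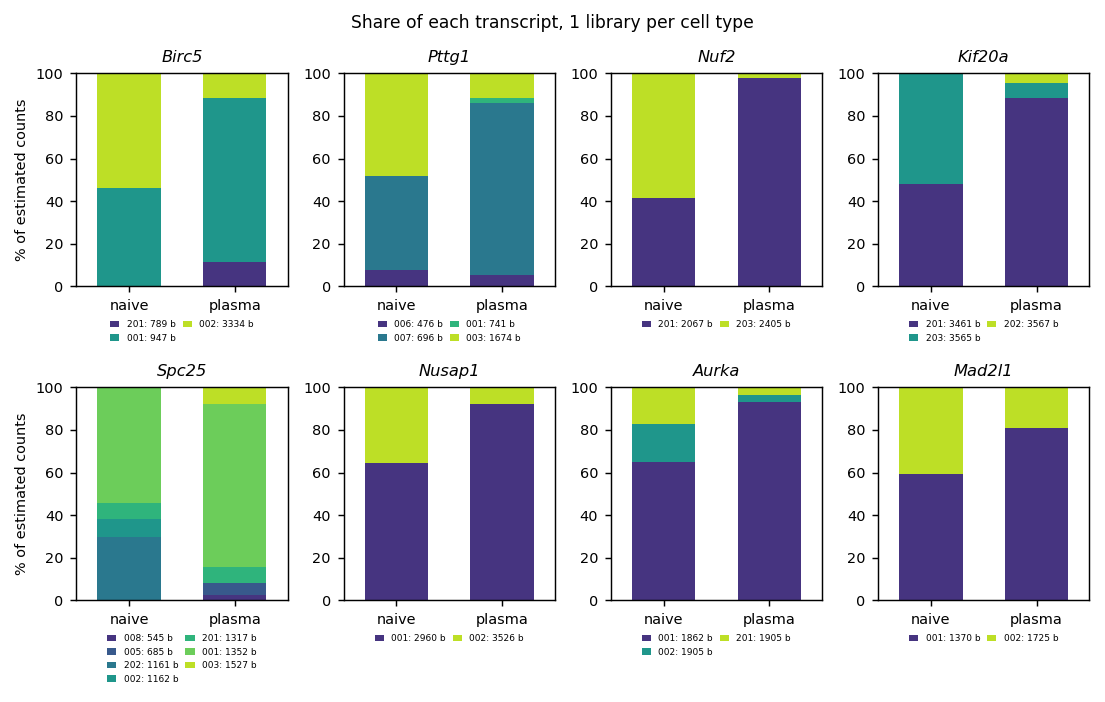
Share of a gene's estimated counts (percent) in each listed transcript, in the naive B cell and plasma cell library, for 8 members; colours run from the shortest to the longest transcript of a gene, whose lengths in bases stand under each panel, and transcripts under 1% in both libraries are left out. The 947-base Birc5, 696-base Pttg1, 2067-base Nuf2 and 3461-base Kif20a transcripts take most of the plasma counts.

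Reads of some members can be confused with those of another gene. Words of 31 bases were taken from GENCODE M21 transcripts of the genes in the files. Over 5% of the words of 8 members occur in other genes of the files. Each percentage counts all such genes, and the gene named is the one with the most shared words. The transcripts that gave the counts differ from those of M21: Cdc25c has 4995 words in M21, and its 1 listed transcript in the files has 1941 bases. The 8 are Ube2c (20.8%, Tnnc2), Kif20a (26.7%, Cdc23), Kif4 (15.7%, Pdzd11), Cdc25c (13.2%, Gm3550), Ccna2 (11.99%, Exosc9), Prc1 (11.2%, Rccd1), Spc24 (6.69%, Aspscr1) and Cenpk (5.09%, Ppwd1). In all but Spc24 the named gene runs on the opposite strand over the member's exons in GENCODE M21. Whether the authors counted by strand is not given in the sources used here. Tnnc2 was at 0.131 and 0 TPM, and Cdc23 at 36.2 and 12.5 TPM. The part of Cdc23 in the Kif20a transcript shares was not tested. Without these 8 genes 34 of 37 members were called higher, with a median ratio of 2.72.

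Related lists were counted against the same shares of all genes, 16.0% called higher and 22.0% lower. Of 16 subunits and regulators of the APC/C 1 was called, Ube2s, a ubiquitin-conjugating enzyme that extends its chains, at 79.7 and 176 TPM (2.12), and the list's median ratio was 0.20. Of 20 DREAM, MuvB, B-Myb and E2F regulators 18 passed 5 TPM and 4 were called higher, 22.2% of those that passed, a share near that of all genes, with a median of 0.23. Without centring 1 was called higher, Mybl2, and 8 lower. The 4 were Mybl2 (B-Myb, which binds MuvB when the genes are switched on) at 6.21 and 22.4 TPM (2.69), Tfdp1 at 32.0 and 63.0 TPM (1.94), E2f8 at 3.43 and 6.28 TPM (1.70) and E2f1 at 7.88 and 10.8 TPM (1.39). The pocket protein Rbl2, a part of DREAM, was at 46.2 and 11.0 TPM with a ratio of -0.99, just inside the threshold, and is named here, as are Pkmyt1 and Sdc1 below, after its values were seen. Without centring the medians were -0.78 for the APC/C list, of which 6 were then called lower, and -0.76 for the DREAM list.

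Other genes of entry, kinetochore and spindle had medians between those of these lists and of the 45 members. Without centring, 5 of the entry list, 9 of the kinetochore list and 13 of the spindle list were called higher, and 2, 7 and 7 lower. Of 13 other genes of the entry switch 11 passed 5 TPM and 8 were higher, 72.7% of those that passed. The list's median was 1.56. The 8 were led by the Cdk subunit Cks1b (15.3 and 97.1 TPM, 3.58), the centrosome kinase Nek2 (4.94 and 24.3 TPM, 3.08) and Gtse1 (3.72 and 16.4 TPM, 2.87). The inhibitory kinase Pkmyt1 was at 34.7 and 13.7 TPM (-0.29). Among 32 other kinetochore and centromere genes 28 passed 5 TPM, of which 15 were higher (53.6%) and 0 lower, and the list's median was 1.13. Cenpm was at 3.31 and 19.6 TPM (3.24), Ska3, listed as F630043A04Rik, at 2.79 and 11.8 TPM (2.75), and Cenpw at 1.86 and 8.58 TPM (2.73). Among 34 other motor, spindle and cytokinesis genes 28 passed 5 TPM, of which 16 were higher (57.1%) and 2 lower. The list's median was 1.88. Cdca3 was at 14.5 and 90.5 TPM (3.55), the minus-end kinesin Kifc1 at 4.00 and 28.3 TPM (3.54) and Ckap2l at 3.69 and 24.5 TPM (3.43). The 2 lower genes were Kif21b (-1.68) and Haus8 (-1.05).

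Genes listed as targets of p53 differed in direction. Of the 8 of 9 that passed 5 TPM, 4 were higher and 2 lower, against 16.0% and 22.0% of all genes. Without centring 1 was higher, Cdkn1a, and 2 lower. The Cdk inhibitor Cdkn1a was at 1.54 and 21.8 TPM (4.15), Ccng1 at 48.0 and 93.4 TPM (1.93) and Sesn1 at 122 and 5.33 TPM (-3.30).

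**Figure D5:**
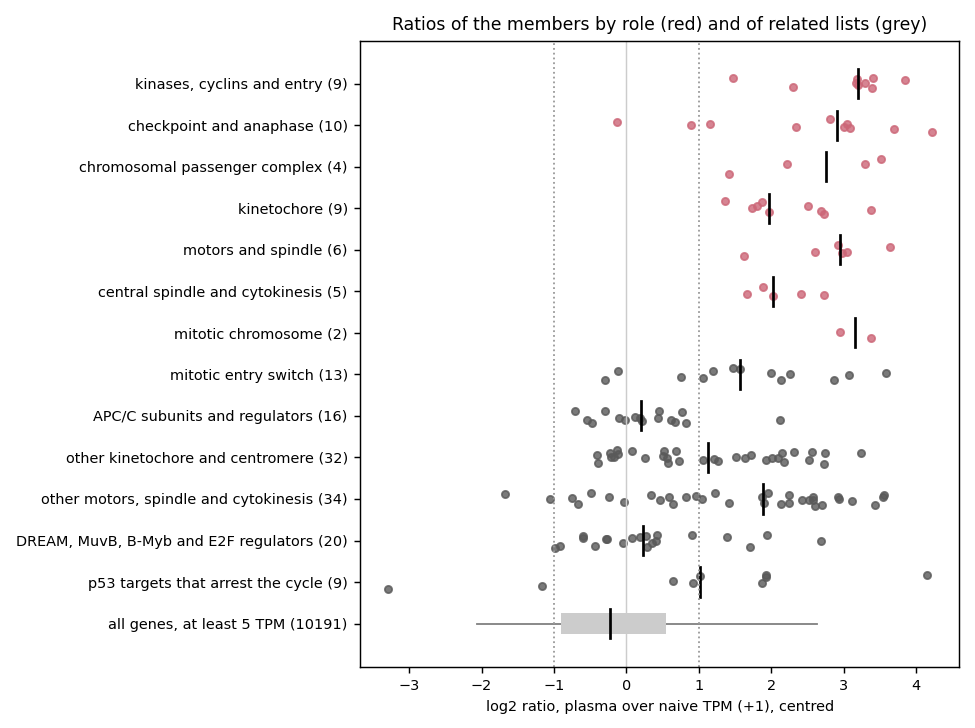
Centred log2 ratio of plasma over naive TPM for each member by role (red) and for each gene of the related lists (grey), with black bars at the medians, gene numbers in brackets and dotted lines at 2-fold. The lowest row shows all 10191 genes with at least 5 TPM as their middle 50% (bar) and central 90% (line). Every group of members has a median above 1, while the APC/C and DREAM lists have medians of 0.20 and 0.23.

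Marker genes bear on what the libraries held. The 6 naive B cell markers measured were all lower, against 22.0% of all genes, from 5733 to 487 TPM in sum. Of 7 plasma cell markers 5 were higher, against 16.0% of all genes, and their list rose from 1021 to 7996 TPM in sum. In the plasma library Mzb1 held 3554 TPM and Jchain 3027 TPM of that sum. Not called higher were Sdc1, the gene of the CD138 antigen used in sorting, at 11.1 and 5.38 TPM, and Tnfrsf17, at 2.24 and 1.68 TPM. Markers of other cells were more abundant in the naive library. T and NK cell markers summed to 83.9 and 3.21 TPM (3 of 8 at 0 in plasma cells, Cd3e among them). Lck held 46.0 TPM of their naive sum. Myeloid markers summed to 145 and 2.25 TPM. Erythroid markers summed to 117 and 14.7 TPM (4 of 8 at 0 in plasma cells, and Tfrc, which dividing cells also express, at 12.2 TPM). The part of these other cells in the naive levels of the mitosis genes was not tested. Of 8 housekeeping genes 1 was higher, Gapdh, and 1 lower, Polr2a, against 16.0% and 22.0% of all genes. These counts depended on centring: without it 1 was higher and 5 lower, with a median of -1.23.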

How the data were processed

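RNA-seq of naive B cells and plasma cells was used, 1 library each. The deposited values are estimated counts and TPM for each transcript, per the file headers, and kallisto is the tool for RNA that the submitters' processing notes name. Per the labels' protocols, libraries came from mRNA with dUTP marking of strand; version, index and strand setting of kallisto are not stated in the labels. ATAC-seq, contact and ChIP-seq samples were not analysed here.

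Values of 61112 transcripts were summed to 26434 gene symbols. To each TPM 1 was added, which makes ratios of low genes too small. From log2 ratios the median over 7488 genes reaching 5 TPM in each library was subtracted. Calls needed 2-fold and 5 TPM in either library. There is no replicate and so no test. Exact 95% intervals (Clopper-Pearson for ratios and shares, Poisson for levels) were taken on estimated counts rounded to whole numbers. These intervals describe counting error alone and leave out the error of dividing reads among transcripts. PCR copies were not removed by molecular identifiers. TMM factors came from edgeR 4.0.16 and size factors from DESeq2 1.42.0, also on rounded counts. The code for calls was checked on simulated counts, which gives no error rate for the real calls.

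The 45 members, the related lists (169 of 170 entries matched, older symbols through gene IDs) and the thresholds were chosen with earlier results of these data known. All members are named, and in each list of pathway genes the 3 called genes with the largest absolute ratio. Exceptions, named after their values were seen, are E2f1, Rbl2, Pkmyt1, Cdc25a, Kif21b, Haus8, Sdc1 and Tnfrsf17. Marker lists are given by their sums, with Mzb1, Jchain and Lck named for their part in a sum. Promoters are RefSeq's (GRCm38.p6), and exon overlaps come from GENCODE M21.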

Additional observations from a re-analysis of the deposited data

How the results depend on the processing

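The count of members called higher was 42 as reported and ran from 32 (no centring, or a 4-fold threshold) to 43 over 15 alternatives, including the pseudocount, the scaling, the TPM minimum, the fold and the choice of transcripts, and it stayed within 1.5 times of 42 in each. The median ratio of 2.72 was 2.97 with a pseudocount of 0.1 TPM, 2.05 with 5 TPM, 1.74 without centring, 3.19 with TMM factors and 3.35 with the size factors of DESeq2. By role, the loss without centring was largest among kinetochore genes, from 9 to 4. No member that was called as reported changed its direction under these alternatives. Pttg1 ran from -1.12 (no centring, where it was called lower) to 0.29 (main transcript alone) and Bub3 from -0.10 (no centring) to 1.32 (DESeq2 size factors). Anln was called higher where the TPM minimum was 1 or absent. Over all genes, 1628 were called higher and 2242 lower as reported, 790 and 5870 without centring, 1382 and 1234 with a pseudocount of 5 TPM (52.8% higher), 3671 and 2367 with no minimum (60.8% higher), 783 and 542 at 4-fold (59.1% higher) and 2443 and 3716 at 1.5-fold. In the window from 150 bases before to 50 after the start, 73.0% of members held a CHR and 75.7% a CCAAT box, against 19.9% and 31.9% of all genes. Leaving out the members that share sequence with another gene, and the CHR and CCAAT positions, were added after the data were seen. No replicate could be left out and no paired analysis was possible because each cell type has 1 library. Low naive counts, 64 for Cenpk and 67 for Cdc25c, limit those ratios most. A search of protein motifs and the ATAC-seq peaks, both planned, were not run.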
